A study of Mus musculus with 81 samples.

Results

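The endogenous T-cell receptor β (TCRβ) repertoire of EG7.OVA tumors was compared between mice given a low dose of mRBC-OVA-4-1BBL-IL-12 and mice given mRBC-CTRL, using 10 of the 81 libraries of the series. EG7.OVA is an ovalbumin-expressing line made from the mouse T-cell lymphoma EL4, and OT-1 cells are transgenic CD8+ T cells whose receptor recognizes an ovalbumin peptide on H-2Kb. mRBC-OVA-4-1BBL-IL-12 are mouse red blood cells that carry this peptide complex together with the costimulatory ligand 4-1BBL and the cytokine IL-12, and mRBC-CTRL are unmodified mouse red blood cells. All mice were female Pep Boy (CD45.1 B6) animals with a subcutaneous EG7.OVA tumor and a transfer of naive OT-1 cells. The low-dose group (n = 5) received 2.5e8 modified red blood cells intravenously on days 0 and 3, and the control group (n = 5) received 1e9 mRBC-CTRL on the same days, so product and cell number differ together. Tumors were taken on day 7, and DNA came from a part of each digested tumor, in which T cells were not sorted. Rearrangements labelled in frame were kept, and the CDR3s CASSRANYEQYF and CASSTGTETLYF were removed. From earlier results of these data, the first was taken as OT-1 and the second as the clone of the injected lymphoma. The remaining receptors are called endogenous here. Any others brought in with the OT-1 transfer could not be separated from those of the host. Endogenous receptors made up 123547 of 441064 productive templates, a template being 1 counted copy of a rearrangement in the DNA.

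Each developing T cell joins a V, a D and a J segment of the TCRβ locus, with bases trimmed and added at the joints, and the CDR3 that spans the joint makes much of the contact with peptide. Cells that divide after meeting antigen pass on the same rearrangement, so a clone is seen as many templates of 1 nucleotide sequence. In an unexpanded repertoire the use of V and J segments and of CDR3 lengths is much alike between mice of 1 strain, while expanded clones shift them in ways particular to a mouse.

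The rearrangements below were among the largest of the low-dose tumors, and the results on V segment and CDR3 length that follow refer to them. Each is the 87-base window deposited for it, 5′ to 3′ on the coding strand, with the CDR3 codons in capitals up to the codon before the last residue. They are the largest TCRBV19-01 rearrangement of each low-dose mouse, the largest rearrangement of mice 3 and 4, and a TCRBV17-01 rearrangement of mouse 2 that ends like its TCRBV19-01 neighbour. Some clones are named below by mouse and segments in place of their CDR3.
Mouse 1, TCRBV19-01, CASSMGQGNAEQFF: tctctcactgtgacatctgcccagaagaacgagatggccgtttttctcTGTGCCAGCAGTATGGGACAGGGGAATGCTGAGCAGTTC
Mouse 2, TCRBV19-01 with TCRBJ02-07: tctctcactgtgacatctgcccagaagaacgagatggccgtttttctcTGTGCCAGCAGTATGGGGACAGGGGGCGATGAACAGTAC
Mouse 2, TCRBV17-01 with TCRBJ02-07: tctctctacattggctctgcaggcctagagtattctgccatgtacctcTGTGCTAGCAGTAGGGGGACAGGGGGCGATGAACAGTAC
Mouse 3, TCRBV29-01 with TCRBJ01-03: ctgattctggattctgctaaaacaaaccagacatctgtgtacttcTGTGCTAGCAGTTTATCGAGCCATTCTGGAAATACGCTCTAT
Mouse 3, TCRBV19-01, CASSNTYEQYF: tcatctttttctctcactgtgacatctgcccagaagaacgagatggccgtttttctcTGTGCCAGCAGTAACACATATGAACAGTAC
Mouse 4, TCRBV17-01, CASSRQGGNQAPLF: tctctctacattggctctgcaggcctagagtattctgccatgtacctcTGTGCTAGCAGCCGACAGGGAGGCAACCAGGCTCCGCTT
Mouse 4, TCRBV19-01, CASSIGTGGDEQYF: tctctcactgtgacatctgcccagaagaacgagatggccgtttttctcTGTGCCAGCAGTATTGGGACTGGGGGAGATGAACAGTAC
Mouse 5, TCRBV19-01, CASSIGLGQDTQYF: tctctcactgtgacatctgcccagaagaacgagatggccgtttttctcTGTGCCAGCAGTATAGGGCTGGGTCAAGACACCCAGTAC

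Endogenous templates ranged from 2589 to 13790 in the low-dose tumors and from 11484 to 23605 in the mRBC-CTRL tumors. Low-dose mouse 4 was the shallowest library, with 2589 endogenous templates in 394 rearrangements, and set the equal depth used below. A share of 10% had a 95% Wilson interval of 8.91 to 11.2% at that depth and of 9.62 to 10.4% in the deepest library, mRBC-CTRL mouse 3. Intervals cover counting error only. The lymphoma CDR3 had templates in 10 of 10 tumors. It had 2 templates over the 5 mRBC-CTRL day 0 blood libraries and 1 template over the 5 low-dose day 7 blood libraries. This CDR3 was taken as the lymphoma mark from earlier results of these data, so the counts are no independent check of the tissue or the clone.

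Endogenous receptors held 48.1, 55.7, 24.1, 75.3 and 19.4% of productive templates in low-dose mice 1 to 5. In mRBC-CTRL mice 1 to 5 they held 37.2, 22.3, 38.9, 21.3 and 15.3%. Low-dose mice 1, 2 and 4 lay above all the controls, and mice 3 and 5 lay within their range. The means of 44.5% ± 23.1 and 27.0% ± 10.4 (SD, n = 5 each) did not differ beyond the spread between mice (2-sided exact permutation test over 252 splits, p = 0.159, adjusted p = 0.423 over the 8 repertoire measures, smallest possible p = 0.00794). Without low-dose mouse 5, the difference of 23.8 percentage points gave an exact p of 0.0476, and without low-dose mouse 4 it was 9.83 points (exact p = 0.325). The share is set against both removed receptors: lymphoma templates were 7.60 to 49.1% of productive templates in the low-dose tumors and 50.0 to 79.4% in the controls, and OT-1 templates were 17.1 to 57.7% and 5.21 to 14.5%. Fewer lymphoma cells and more endogenous T cells cannot be told apart from these shares.

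Low-dose tumors held 754, 435, 721, 394 and 941 different rearrangements, expected in 2589 templates drawn from each of mice 1 to 5. The mRBC-CTRL tumors held 887, 746, 797, 1053 and 833. Low-dose mice 2, 3 and 4 were below every control, mice 2 and 4 by far, and mouse 5 was above all but 1 of them. The means were 649 ± 230 and 863 ± 118 (exact permutation p = 0.127, n = 5 each). Without low-dose mouse 5 the difference of -287 rearrangements had an exact p of 0.0159, and without low-dose mouse 4 it was -150.5 (exact p = 0.254). Counting all templates of each library, which leaves the unequal depth in, also gave an exact p of 0.0159.

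Evenness, which is 1 when all rearrangements have equal templates, was 0.700, 0.558, 0.716, 0.614 and 0.824 in low-dose mice 1 to 5 at the same depth. It was 0.705, 0.594, 0.744, 0.786 and 0.746 in the controls. The least even tumor of each group was that of mouse 2, and the means of 0.682 ± 0.102 and 0.715 ± 0.0734 were not separated (exact permutation p = 0.579, n = 5 each).

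**Figure D1:**
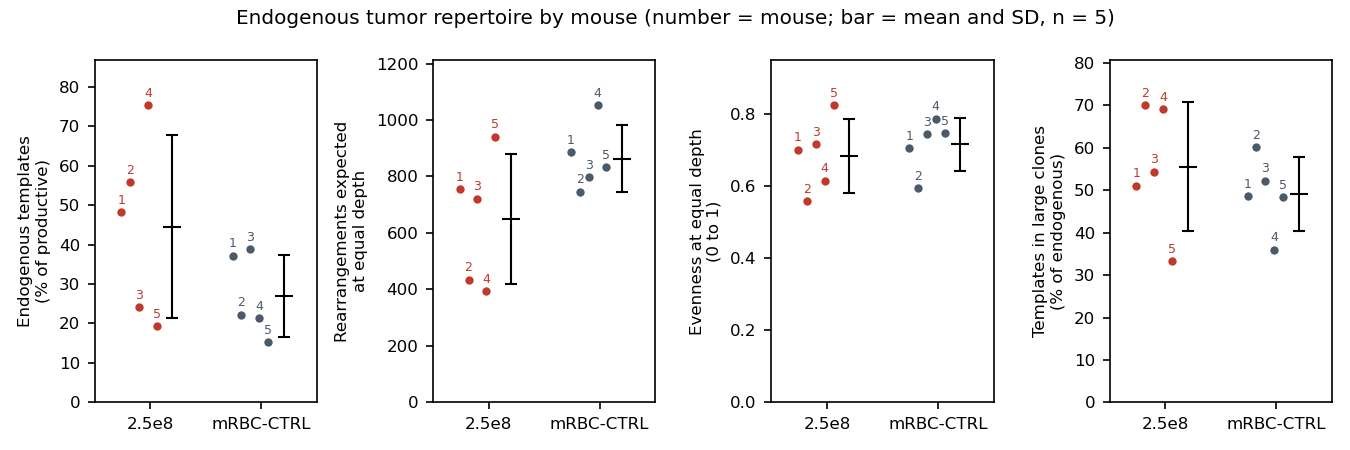
Endogenous share, expected number of rearrangements at 2589 templates, evenness at that depth and the share of templates in large clones for each tumor, with low-dose (2.5e8) mice in red and mRBC-CTRL mice in grey. Numbers are mouse numbers, and bars give the mean and SD of 5 mice. The groups overlap in all 4 panels, and the low-dose mice spread more widely than the controls in each.

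Expanded clones held a large part of the endogenous repertoire in both groups. Rearrangements with at least 1% of endogenous templates, called large clones here, held 51.1, 70.1, 54.4, 69.2 and 33.3% in low-dose mice 1 to 5 and 48.5, 60.1, 52.3, 36.0 and 48.4% in the mRBC-CTRL mice. The means were 55.6% ± 15.1 and 49.1% ± 8.70 (exact permutation p = 0.444, n = 5 each). There were 10 to 14 large clones in a low-dose tumor and 5 to 15 in a control tumor, 62 and 51 in all. The number of clones that together held 50% of endogenous templates was 11, 3, 10, 4 and 46 in the low-dose mice and 12, 3, 14, 14 and 49 in mRBC-CTRL mice 1, 2, 3, 5 and 4. Each group thus held 1 tumor with 3 such clones and 1 with 46 or 49.

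**Figure D2:**
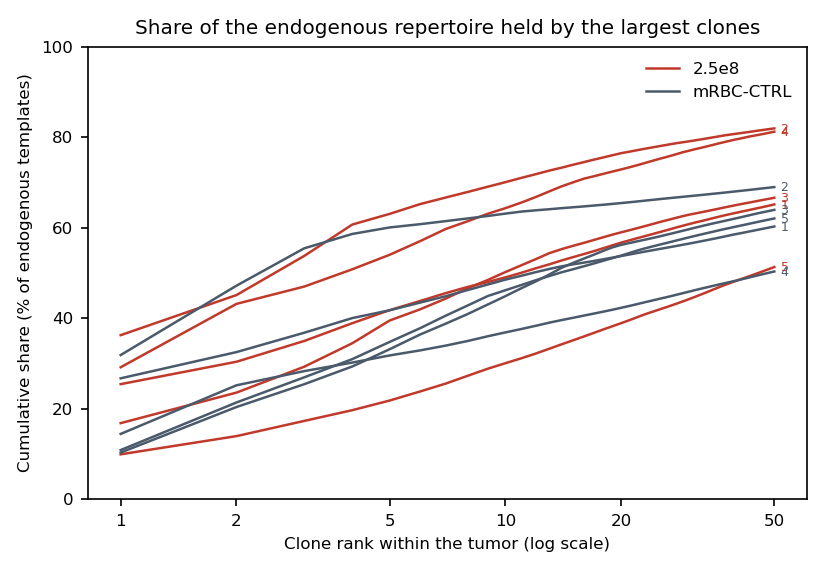
Cumulative share of endogenous templates (y axis, percent) against clone rank (x axis, log scale) for the 50 largest rearrangements of each tumor, 1 line a mouse with its number at the right. The 10 largest clones held 30.1 to 70.1% in the low-dose tumors (red) and 36.9 to 63.1% in the mRBC-CTRL tumors (grey).

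The largest endogenous rearrangement held 25.4% (95% Wilson interval, 24.7 to 26.2) of endogenous templates in low-dose mouse 1 and 36.3% (35.3 to 37.3) in mouse 2, and was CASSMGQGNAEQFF and the TCRBV19-01 clone printed above. In mouse 3 it was the TCRBV29-01 clone printed above with 16.8% (16.2 to 17.5), in mouse 4 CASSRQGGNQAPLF with 29.2% (27.4 to 30.9), and in mouse 5 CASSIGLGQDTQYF with 9.90% (9.21 to 10.6). The clones leading mice 1, 2 and 5 used TCRBV19-01, and those of mice 3 and 4 used TCRBV29-01 and TCRBV17-01. In the controls the leaders were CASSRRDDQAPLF (TCRBV12-02, 26.7%) in mouse 1, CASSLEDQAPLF (TCRBV16-01, 31.9%) in mouse 2 and another TCRBV16-01 clone (10.3%) in mouse 3. In mouse 4 the leader was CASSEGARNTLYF (TCRBV05-01, 14.4%), and in mouse 5 it was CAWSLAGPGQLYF (TCRBV31-01, 10.8%). No CDR3 led more than 1 tumor.

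V segment use was tested on templates summed per segment with edgeR's quasi-likelihood test. Of 23 V segments tested, 0 passed a Benjamini-Hochberg adjusted p of 0.05 (0% of those tested), 3 had an unadjusted p under 0.05 (13%), and 0 had groups that did not overlap (0%). DESeq2 called 3, TCRBV17-01, TCRBV19-01 and TCRBV03-01, each higher in the low-dose tumors. TCRBV03-01 held 10.7, 4.38, 2.88, 8.03 and 8.70% in low-dose mice 1 to 5 and 2.00 to 4.48% in the controls (edgeR, adjusted p = 0.322). Its means of 6.93 and 3.58% were both below the 8.37 and 8.52% of day 0 blood of the same groups. DESeq2 gave no adjusted p for some segments. Among these were TCRBV15-01 (log2 ratio -2.42) and TCRBV12-02 (-1.02), both lower in the low-dose tumors. The log2 ratio of low dose to mRBC-CTRL was positive for 8 segments and negative for 15, with a median of -0.29.

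TCRBV19-01, which encodes the chain known as Vβ6, was the most used V segment over the 10 tumors. It held 32.1, 38.8, 14.4, 17.5 and 15.1% of endogenous templates in low-dose mice 1 to 5 and 2.82, 3.74, 6.79, 19.5 and 6.25% in mRBC-CTRL mice 1 to 5. The lowest low-dose mouse lay above 4 of the 5 controls, and mRBC-CTRL mouse 4 lay above 3 of the 5 low-dose mice. The log2 ratio was 1.59 ± 0.59 (SE, edgeR, adjusted p = 0.152). Without mRBC-CTRL mouse 4 the adjusted p was 0.00831, and with DESeq2 it was 0.0127. Without the largest clone of each library the log2 ratio was 0.38 (edgeR, adjusted p = 0.940).

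A single rearrangement held most of the TCRBV19-01 templates of low-dose mice 1, 2, 4 and 5. The largest held 25.4, 36.3, 6.75, 14.02 and 9.90% of endogenous templates in mice 1 to 5 and ranked 1, 1, 2, 2 and 1 among all clones of its tumor. In mRBC-CTRL mice 1 to 5 the largest held 0.222, 1.44, 2.17, 10.8 and 2.29%, at ranks 33, 5, 8, 2 and 8. All other TCRBV19-01 rearrangements together held 2.58 to 7.65% in the low-dose tumors and 2.31 to 8.74% in the controls, ranges that overlap almost fully. With each rearrangement counted once the segment held 7.61% ± 0.779 and 6.80% ± 0.572 (n = 5 each).

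The blood of the same mice gives the level in blood before and after dosing. No tumor library was taken on day 0, so tissue and time differ together between tumors and day 0 blood. In day 0 blood, taken shortly after OT-1 cells were given and ahead of the first dose, TCRBV19-01 held 7.37 to 8.25% of endogenous templates in the low-dose group and 6.86 to 7.40% in the mRBC-CTRL group. All 5 low-dose tumors were thus above the day 0 blood of both groups, and 4 of 5 control tumors were below that of their own group. In day 7 blood the segment held 7.49 to 13.4% in the low-dose mice and 6.24 to 8.66% in the 4 control mice with a library. The tumors given the same product at 1e9 cells, which did not enter the test, ranged from 5.89 to 42.5%.

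**Figure D3:**
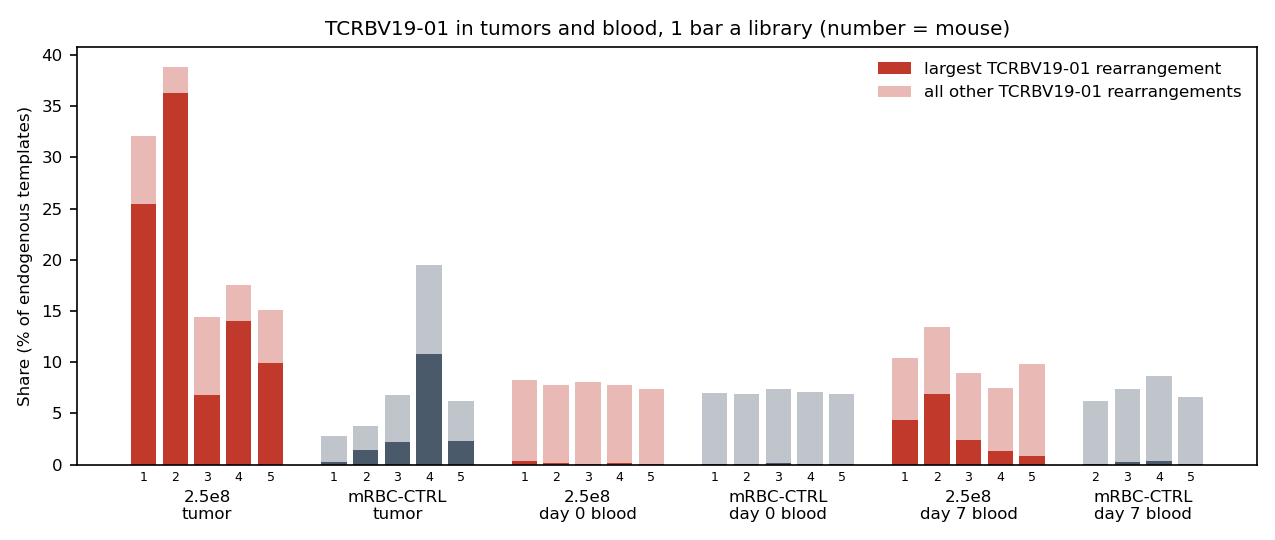
TCRBV19-01 in each library as percent of endogenous templates (y axis), with the largest rearrangement in the dark part of a bar and all others in the pale part. Red bars are low-dose (2.5e8) mice and grey bars mRBC-CTRL mice, with mouse numbers under the bars. The pale parts stay under 10% in every library, and the dark parts set the tallest bars.

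TCRBV17-01, known as Vβ9, had the largest ratio of the segments with a mean share of at least 1%. It held 0.935, 7.29, 0.880, 32.1 and 3.51% in low-dose mice 1 to 5 and 0.568 to 1.43% in the controls. Mice 2, 4 and 5 were above all controls, and mice 1 and 3 were within their range. The log2 ratio was 3.25 ± 0.94 (edgeR, adjusted p = 0.0937). The value rested on low-dose mouse 4: without it the log2 ratio was 1.75 (adjusted p = 0.310), and without the largest clone of each library it was 1.92 (adjusted p = 0.181). It passed without low-dose mouse 1 (adjusted p = 0.0326), without low-dose mouse 3 (adjusted p = 0.0331) and with all 15 tumors in the fit (adjusted p = 0.0411). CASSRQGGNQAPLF alone made up 29.2% of the templates of mouse 4.

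Among segments with lower shares after the low dose, TCRBV15-01 (Vβ12, also the segment of the removed lymphoma clone) held 0.541 to 1.69% against 1.26 to 16.6% (log2 ratio -2.11 ± 0.80, edgeR adjusted p = 0.152). TCRBV16-01 (Vβ11) held 0.695 to 10.2% against 2.34 to 33.8% (log2 ratio -1.74 ± 0.90, adjusted p = 0.322), and its sign turned to 0.61 when the largest clone of each library was left out. Both means rest on mRBC-CTRL mouse 2, where 1 clone on TCRBV15-01 held 15.3% and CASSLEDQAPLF on TCRBV16-01 held 31.9%. Without that mouse the log2 ratios were -0.75 for TCRBV15-01 and -0.68 for TCRBV16-01. Neither difference passed the test.

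TCRBV12-01 (Vβ5.2, the V segment of the removed OT-1 receptor) held 5.31, 1.33, 3.40, 2.39 and 5.89% in the low-dose tumors and 10.3, 2.60, 11.9, 5.00 and 13.5% in the controls. Controls 1, 3 and 5 were above every low-dose mouse (log2 ratio -1.24 ± 0.60, edgeR adjusted p = 0.322). TCRBV12-02 (Vβ5.1) reached 29.2% in mRBC-CTRL mouse 1 and 1.79 to 5.11% in the other 9 tumors, and its log2 ratio of -1.26 ± 0.81 turned to 0.42 without that mouse. The 3 entries of the Vβ5 list, 2 of them tested, held 6.93% ± 2.87 and 16.5% ± 13.7 in all, against 7.36 and 6.94% in day 0 blood, and 0 were called in either direction, with a median log2 ratio of -1.25 beside -0.29 for all segments tested.

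Other common segments were less displaced. TCRBV05-01 (Vβ1) held 3.79 to 13.3% in the low-dose tumors and 3.58 to 20.6% in the controls, with a log2 ratio of -0.36 ± 0.60 that turned to 0.11 without mRBC-CTRL mouse 4. TCRBV13-02 (Vβ8.2) held 4.13 to 9.29% and 5.28 to 14.3% (log2 ratio -0.43 ± 0.47). The Vβ8 list, TCRBV13-01 to TCRBV13-03, held 14.995% ± 6.04 and 16.4% ± 4.08, below the 21.1 and 22.3% of day 0 blood. Of its 3 members, 0 were called and the median log2 ratio was 0.07.

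**Figure D4:**
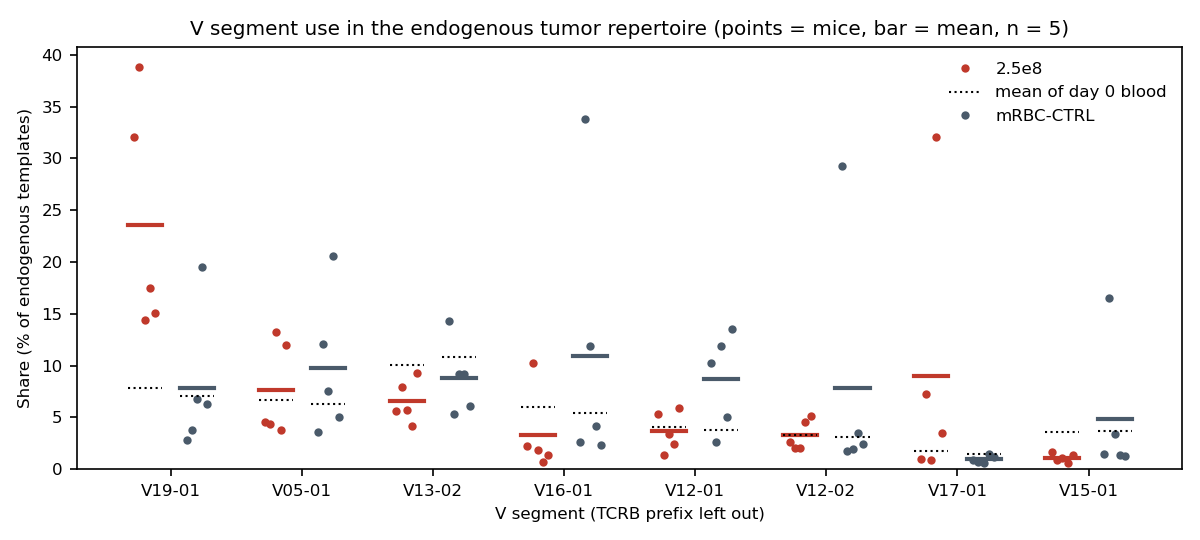
Share of endogenous templates (y axis, percent) for the 8 V segments described, 1 point a tumor, with group means as bars and the mean of the same mice's day 0 blood as dotted lines. In most segments a single tumor sets the distance between the group means, while TCRBV19-01 has all 5 low-dose points (red) above 4 of the 5 mRBC-CTRL points (grey).

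J segment use was not separated either: 0 of 12 J segments passed the adjusted edgeR test (0%), 0 had an unadjusted p under 0.05 (0%), DESeq2 called 0 and 0 had groups that did not overlap (0%). TCRBJ02-07, the most used, held 20.2, 62.6, 28.4, 31.0 and 31.6% in the low-dose tumors and 23.9, 13.4, 37.7, 31.2 and 31.0% in the controls (log2 ratio 0.34 ± 0.45). TCRBJ01-05 ranged from 1.02 to 36.0% and from 1.43 to 36.7%, and its highest values came with the leading clones of low-dose mouse 4 and of controls 1 and 2. Without low-dose mouse 4 its log2 ratio was -2.32 (edgeR, adjusted p = 0.0270) in place of -0.77 ± 0.89 (adjusted p = 0.502), while it was -0.31 without mRBC-CTRL mouse 1 (adjusted p = 0.763) and -0.26 without mRBC-CTRL mouse 2 (adjusted p = 0.788).

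TCRBJ02-01 was at 30.6% in low-dose mouse 1, whose leading clone uses it, and at 6.49 to 8.93% in the other 4, against 5.27 to 21.1% in the controls. Its log2 ratio of 0.17 ± 0.62 changed sign under other scalings, to -0.08 with TMM factors and -0.13 with DESeq2. TCRBJ01-02 held 2.54 to 9.35% and 2.01 to 13.8% (log2 ratio -0.48 ± 0.64). The J2 cluster as a whole held 71.3, 85.7, 53.6, 47.8 and 71.0% of templates with a J call in low-dose mice 1 to 5 and 39.5, 53.4, 65.4, 74.6 and 71.9% in the controls (exact permutation p = 0.627, n = 5 each). Of its 7 members 6 were tested and 0 were called, with a median log2 ratio of -0.22, and of the 7 members of the J1 cluster 6 were tested and 0 were called, with a median of -0.04, beside -0.15 for all J segments tested. Counted once per rearrangement, the J2 share was lower in the low-dose tumors by 2.22 percentage points (difference -2.22, exact permutation p = 0.0317, n = 5 each).

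CDR3s of 14 residues were more abundant in the low-dose tumors. They held 48.3, 70.7, 19.7, 65.7 and 37.8% of endogenous templates in mice 1 to 5 and 17.7, 28.1, 16.8, 24.5 and 16.3% in mRBC-CTRL mice 1 to 5. Low-dose mice 1, 2, 4 and 5 were above every control, and mouse 3 lay between them. The log2 ratio was 1.23 ± 0.37 (edgeR, adjusted p = 0.0226), and it was the 1 length called of 9 tested (11.1%), with 2 at an unadjusted p under 0.05 (22.2%) and 0 whose groups did not overlap (0%). In day 0 blood of the same mice this length held 29.9 to 30.7% in the low-dose group and 30.02 to 33.9% in the mRBC-CTRL group, so 4 low-dose tumors were above and 5 control tumors below the blood of their own group.

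The call depends on a few clones and on the scaling. It was lost with TMM factors (log2 ratio 0.92, adjusted p = 0.179), without the largest clone of each library (0.54, adjusted p = 0.527), with each rearrangement counted once (0.07, adjusted p = 0.412) and with the exact permutation test of shares (p = 0.0238, adjusted p = 0.214), as well as without low-dose mouse 2 or 4 or mRBC-CTRL mouse 1, 3 or 5 (adjusted p = 0.0948, 0.117, 0.120, 0.0510 and 0.120).

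TCRBV19-01 carried a large part of these templates. Receptors of 14 residues on TCRBV19-01 held 30.3, 37.8, 5.85, 16.3 and 11.6% of endogenous templates in low-dose mice 1 to 5 and 1.08 to 4.28% in the controls, so each low-dose tumor was above each control. This class was chosen after its values were seen and is given without a test. Receptors of 14 residues on all other V segments held 17.98, 32.9, 13.8, 49.4 and 26.2% against 12.5 to 25.7%, where only mice 2, 4 and 5 exceeded all controls. With TCRBV19-01 left out of all libraries, an alternative added after the data were seen, the log2 ratio was 0.94 (edgeR, adjusted p = 0.272).

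In 4 of the low-dose mice the leading TCRBV19-01 clone of 14 residues shared a pattern, CASS followed by I or M, then G, any residue and G. Receptors of this pattern held 28.8, 36.7, 0.721, 14.7 and 10.1% of endogenous templates in low-dose mice 1 to 5, 0 to 2.88% in the controls and 0.0511 to 0.248% in the day 0 blood of both groups. Low-dose mouse 3 had the same level as mRBC-CTRL mouse 3, at 0.703%. The largest TCRBV19-01 clone of mRBC-CTRL mouse 5, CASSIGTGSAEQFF with 2.29%, also had the pattern. In the tumors given the same product at 1e9 cells, receptors of this pattern held 0.0472 to 10.3%. The pattern was read from the low-dose clones, so the values describe them and test nothing.

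The other lengths were not called. CDR3s of 13 residues held 9.58, 10.2, 22.9, 10.2 and 20.8% in the low-dose tumors and 40.4, 15.6, 20.3, 40.4 and 27.2% in the controls (log2 ratio -0.97 ± 0.43, edgeR adjusted p = 0.143, and 0.0378 without low-dose mouse 3). Their log2 ratio was -0.27 without the largest clone of each library (edgeR, adjusted p = 0.901) and -0.03 with each rearrangement counted once (adjusted p = 0.946). Those of 15 residues held 6.86 to 30.3% and 9.92 to 39.2% (log2 ratio -0.27 ± 0.48). The mean length was 13.9 ± 0.0514 residues in the low-dose tumors and 13.6 ± 0.309 in the controls (exact permutation p = 0.143, and p = 0.0238 without mRBC-CTRL mouse 3, n = 5 each), and the difference was -0.02 with each rearrangement counted once. Bases inserted at the joints averaged 3.20 ± 0.519 and 3.61 ± 0.578 per template (exact permutation p = 0.254, n = 5 each).

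**Figure D5:**
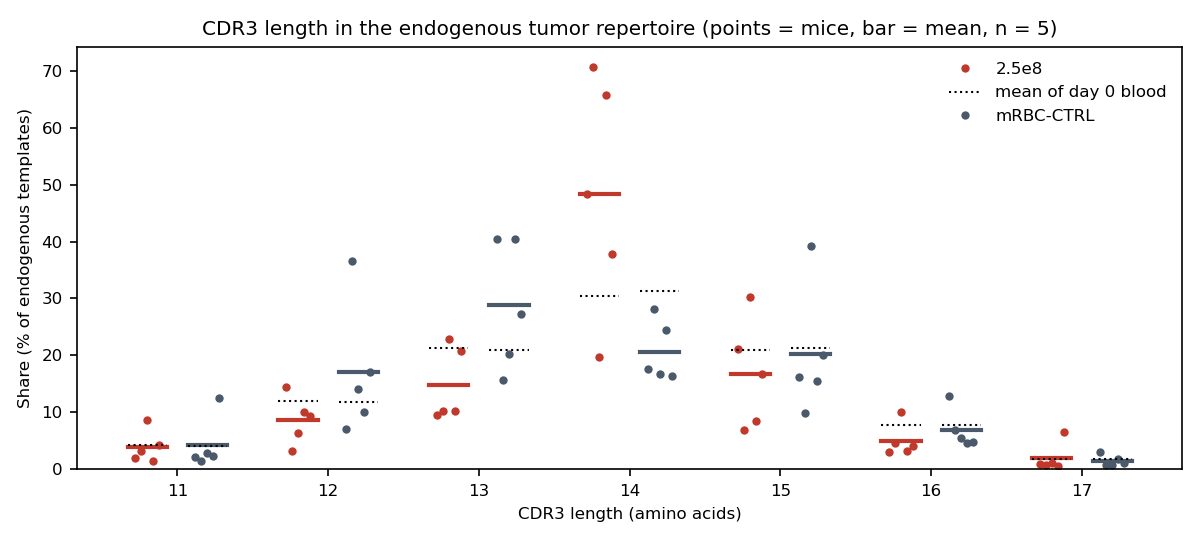
Share of endogenous templates (y axis, percent) by CDR3 length in amino acids (x axis) for lengths of 11 to 17, 1 point a tumor, with group means as bars and mean day 0 blood as dotted lines. Low-dose points (red) at 14 residues reach 70.7%, and the mRBC-CTRL points (grey) stay at or under 28.1%, below the dotted lines.

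Of the 62 large clones in low-dose tumors 24 had 14 residues, found in all 5 mice, and of the 51 in controls 11 had this length, also in all 5 mice. Clones of 13 residues numbered 13 and 12, those of 12 residues 6 and 11, and those of 15 residues 11 and 11. By V segment, TCRBV05-01 gave 10 large clones in the low-dose group and 7 in the controls, TCRBV19-01 gave 9 and 6, TCRBV03-01 gave 7 and 0, TCRBV12-01 gave 3 and 8, and TCRBV17-01 gave 3 and 0. These counts describe clones, which share a mouse, and were not tested.

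Nearly all large clones could be found in the blood of the mouse that carried them. In day 7 blood, 55 of 62 low-dose clones and 37 of the 41 control clones whose mouse had a library were present (88.7 and 90.2%), while the day 7 blood of other mice held them in 2 of 806 and 0 of 673 comparisons of 1 clone with 1 other library. In day 0 blood, 16 of 62 low-dose clones (25.8%) and 4 of 51 control clones (7.84%) were found in the same mouse, and 6 of 806 and 0 of 663 in other mice. Day 0 blood held 2683 to 18519 endogenous templates in the low-dose mice and 2621 to 7304 in the controls, so the depth of the search differed.

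The leading tumor clones of the low-dose mice were also frequent in day 7 blood. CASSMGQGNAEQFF held 4.31% of endogenous templates there in mouse 1, the TCRBV19-01 leader 6.86% in mouse 2, the TCRBV29-01 leader 3.06% in mouse 3, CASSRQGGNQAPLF 9.05% in mouse 4 and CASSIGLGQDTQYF 0.883% in mouse 5. In mRBC-CTRL mice 2 to 5 the leaders held 0.442, 0.465, 1.37 and 0.4998%. On day 0, before dosing, the leading clone of mouse 2 already had 22 templates (0.119%) in its blood, that of mouse 3 had 7, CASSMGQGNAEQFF of mouse 1 had 4, and those of mice 4 and 5 had 0. Of the control leaders, that of mouse 4 had 1 template and those of mice 1, 2, 3 and 5 had 0.

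All rearrangements found in both the tumor and the day 7 blood of a mouse, small clones included, held 64.0, 80.9, 66.5, 68.1 and 41.7% of the tumor's endogenous templates in low-dose mice 1 to 5 and 62.2, 59.0, 48.1 and 57.8% in mRBC-CTRL mice 2 to 5. The same rearrangements held 18.3, 21.6, 20.1, 16.6 and 10% of day 7 blood in the low-dose mice and 5.85, 7.31, 5.14 and 8.16% in the controls. The blood shares did not overlap between groups, although the low-dose tumors held fewer rearrangements in which to look. This measure was chosen after its values were seen and was not tested.

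Similar receptors recurred between mice within each group, and some were also found in the other group. Among large clones, the TCRBV19-01 leader of low-dose mouse 2 and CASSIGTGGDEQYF of mouse 4, both on TCRBV19-01 and TCRBJ02-07, differed at 1 residue and at 3 of the 87 bases of the windows printed above. The CDR3 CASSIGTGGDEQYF also had 70 templates (0.297%) in mRBC-CTRL mouse 3. The TCRBV17-01 clone of mouse 2 printed above differed from the TCRBV19-01 leader of its own tumor at 1 residue, and the final 25 bases of both windows were identical. Its templates numbered 622 in the tumor and 59 in day 7 blood, which is 19.1 and 17.6% of those of the TCRBV19-01 leader. In day 0 blood of this mouse the leader had 22 templates and the TCRBV17-01 clone had 0. Whether both arose as separate rearrangements was not tested.

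In the controls, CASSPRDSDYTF on TCRBV12-01 held 1.43% of endogenous templates in mouse 1, in 5 nucleotide versions, and 8.68% in mouse 5, in 9 versions. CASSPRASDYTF on the same V segment, which differs at 1 residue, was a large clone of mouse 3 with 3.25%. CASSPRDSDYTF had 0 templates in the 5 low-dose tumors, where a count of 0 allows a share of up to 0.0218 to 0.116%. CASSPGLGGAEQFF on TCRBV19-01 held 1.45% in mRBC-CTRL mouse 2 and 1.07% in mouse 4, and had 0 templates in the low-dose tumors. No other CDR3 reached 1% in 2 or more of the 10 tumors.

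In all, 6 pairs of large clones with CDR3s that differed at no more than 1 residue lay within the 10 pairs of mRBC-CTRL mice, 2 lay within the 10 pairs of low-dose mice and 1 lay within the 25 pairs of mice from both groups. The last joined clones of low-dose mouse 3 (2.47%) and mRBC-CTRL mouse 3 (10.1%), both on TCRBV04-01. Of the 6 control pairs, 1 joined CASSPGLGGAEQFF of mice 2 and 4. All the others joined clones with the CDR3s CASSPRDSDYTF or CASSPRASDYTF in mice 1, 3 and 5. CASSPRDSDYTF of mouse 5 entered these pairs as more than 1 large clone.

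Only 11 CDR3s had templates in at least 5 of the 10 tumors and 30 templates in all, and 0 of them differed between groups in the adjusted edgeR test (0%), 0 at an unadjusted p under 0.05 (0%) and 0 with DESeq2. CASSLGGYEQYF had 40, 2, 0, 3 and 47 templates in the low-dose tumors and 6, 0, 8, 0 and 0 in the controls (log2 ratio 3.88 ± 2.20, adjusted p = 0.397). A CDR3 of 15 residues on TCRBV01-01 had 6 templates in low-dose mouse 1 and 0 in the other 4, and 0, 43, 3, 11 and 8 in the controls (log2 ratio -3.25 ± 1.90, adjusted p = 0.397). A CDR3 of 15 residues on TCRBV12-01 had 1, 0, 2, 0 and 2 templates against 0, 0, 1, 0 and 59 (log2 ratio -3.06 ± 1.89, adjusted p = 0.397). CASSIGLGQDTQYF, which led low-dose mouse 5 with 670 templates over its nucleotide versions, also had 17 in low-dose mouse 2, 86 in mouse 3, 46 in mRBC-CTRL mouse 4 and 65 in mouse 5, and 0 in the other 5 tumors.

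Mice of 1 group were nearly as different from each other as from mice of the other group. The Jensen-Shannon distance of V use, which is 0 for equal use and 1 for none in common, had a median of 0.431 over the 10 pairs of low-dose mice, 0.453 over the 10 pairs of controls and 0.505 over the 25 pairs between groups, with ranges of 0.265 to 0.512, 0.353 to 0.604 and 0.197 to 0.706. With each rearrangement counted once the medians were 0.110, 0.0603 and 0.0905, and the low-dose libraries held fewer rearrangements. Draws of 2589 templates from each of the mice of a pair were expected to share 7.72, 10.7 and 9.14 CDR3s (medians). The pairs share mice and are not independent, so these values describe the spread without a test.

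The tumor repertoire was compared with day 7 blood of the same mouse at 2482 endogenous templates per library. Evenness in the tumor minus that in blood was -0.254, -0.362, -0.234, -0.312 and -0.154 in low-dose mice 1 to 5, and it was -0.394, -0.242, -0.204 and -0.234 in mRBC-CTRL mice 2 to 5. The blood itself had an evenness of 0.921 to 0.979 in the low-dose mice and 0.982 to 0.991 in the controls. The mean differences of -0.263 ± 0.0791 (n = 5) and -0.268 ± 0.0852 (n = 4) were not separated (exact permutation test over all splits of the mice, p = 0.929).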

How the data were processed

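The authors amplified DNA of each tumor with the immunoSEQ mouse TCRβ assay and deposited its count of templates per 87-base rearrangement, not normalized. The methods name the immunoSEQ analyzer for the later analysis, while the aligner and genome build are not given in the sources used here. Inserted bases and the printed sequences were taken as deposited. Vβ names come from RefSeq synonyms (GRCm38.p6).

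Richness and entropy were hypergeometric expectations at 2589 templates. Single measures were compared by exact permutation over mice. Segments, lengths and shared CDR3s were tested with edgeR 4.0.16 (quasi-likelihood, library size equal to endogenous templates, at least 10 templates in at least 5 libraries; shared CDR3s as stated) and with DESeq2 1.42.0 in R 4.3.3, adjusted by Benjamini-Hochberg. Both steps were tested on simulated data. The counts simulated for edgeR had a fixed spread between mice that was not taken from these libraries. They do not show how the test handles shares set by single clones. The SE of each log2 ratio was derived from that ratio and the F statistic of the edgeR test. The exact tests and figures ran in python 3.11.15 with pandas 2.3.3, scipy 1.17.1, matplotlib 3.10.9 and numpy 2.4.6.

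Members, lists and tests were chosen with earlier results of these data known. By rule, the text names called features, the 6 most used V segments, the 2 of largest ratio each way among those of at least 1%, the 4 most used J segments, the 3 commonest lengths, the largest clone of each tumor, CDR3s of at least 1% in at least 2 tumors and the 3 shared CDR3s of lowest p. Other clones, TCRBV03-01 and the residue pattern were chosen after their values were seen. The labels number mice within groups, and each number was taken as a separate animal.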

Additional observations from a re-analysis of the deposited data

Results flagged for a closer look

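In 11 of 52 groups tested, the highest mouse stood apart from the rest of its group, its distance to the nearest other mouse being more than 0.71 of the whole range. Chance gives about 1 in 20 groups for normally distributed values. Shares set by single clones are skewed and some features were named for their large ratios, so the number is not read against that rate. In low-dose mice these were TCRBV16-01 at 10.2% and TCRBJ02-07 at 62.6% in mouse 2, TCRBV17-01 at 32.1% and TCRBJ01-05 at 36.0% in mouse 4, and TCRBJ02-01 at 30.6% and the shared 15-residue CDR3 on TCRBV01-01 at 0.0435% in mouse 1. In mRBC-CTRL mice these were TCRBV12-02 at 29.2% in mouse 1, TCRBV15-01 at 16.6% and the same TCRBV01-01 CDR3 at 0.374% in mouse 2, TCRBV19-01 at 19.5% in mouse 4 and the shared 15-residue CDR3 on TCRBV12-01 at 0.499% in mouse 5. For the V and J segments, a clone of the same mouse carried the share: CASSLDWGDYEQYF (8.87%) and the leading TCRBV19-01 clone (36.3%) in low-dose mouse 2, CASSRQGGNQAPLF (29.2%) in low-dose mouse 4, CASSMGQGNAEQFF (25.4%) in low-dose mouse 1, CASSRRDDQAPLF (26.7%) in control 1, a TCRBV15-01 clone (15.3%) in control 2 and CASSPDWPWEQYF (10.8%) in control 4.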

How the results depend on the processing

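Over 30 results and 239 alternative values other than leaving out mice, 203 kept direction and side of the threshold, 17 turned sign, 7 newly passed or gained calls and 12 no longer passed or lost calls. Some of the 203 could hardly differ. Leaving out rearrangements found in at least 8 tumors and in no day 0 blood removed 0 rearrangements. Leaving out those close to the removed receptors took away 10 of 123547 endogenous templates. DESeq2 gave no adjusted p for TCRBV12-02 and TCRBV15-01, which were counted among the 203. With each rearrangement counted once, the mean CDR3 length difference was -0.015, the J2 share difference -2.22 points, 1 J segment was called (TCRBJ01-03), and log2 ratios turned to 0.036 for TCRBV05-01, 0.15 for TCRBV13-02, 0.14 for TCRBJ01-02, -0.092 for TCRBJ02-01, -0.068 for TCRBJ02-07 and 0.0082 for 15 residues. Without the largest clone of each library they turned to 0.12 for TCRBV05-01, 0.48 for TCRBV12-02, 0.61 for TCRBV16-01 and -0.56 for TCRBJ02-01, and the mean length difference to -0.0071. TCRBJ02-01 was at -0.084 with TMM factors and -0.13 with DESeq2. V segments called were 3 with DESeq2 and 1 with 15 tumors in the fit. Length classes called were 0 with TMM factors, with no filter on low counts, with rearrangements counted once, without the largest clones, without TCRBV19-01 and with the exact permutation test of shares. Richness over all templates differed by -1716. The cause of these shifts was not tested.

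Leaving out 1 mouse at a time gave differences of 9.83 to 23.8 points in endogenous share, -287 to -150.5 rearrangements, 0.189 to 0.348 residues in mean length, -0.431 to 9.44 points in J2 share and -0.0364 to 0.02998 in tumor minus blood evenness. It called 0 to 1 V segments (TCRBV17-01 without low-dose mouse 1 or 3, TCRBV19-01 without control 4), 0 to 1 J segments and 0 to 2 length classes, and gave log2 ratios of -0.66 to 0.11 for TCRBV05-01, -1.52 to 0.42 for TCRBV12-02, -0.48 to 0.55 for TCRBJ02-01, -0.60 to 0.12 for 15 residues, 1.75 to 3.55 for TCRBV17-01 and -2.32 to -0.26 for TCRBJ01-05. The labels do not say that mouse numbers pair the groups. Correlations over 23 V segments between mice of equal number were -0.07 to 0.27, which could not show a shared cage or batch. With the number as a replicate block, 1 length class (14 residues, log2 ratio 1.13), 0 V segments and 0 J segments were called. No call of the report changed with the block, while TCRBJ02-01 was at -0.0037 and the shared TCRBV12-01 CDR3 at 0.17. With 5 mice a group the smallest exact p is 0.00794, and the 2589 templates of low-dose mouse 4 limit the richness comparison.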
